A study of Mus musculus with 30 samples.

Results

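The 10 genes described here encode the factors that turn a licensed replication origin into an active one: Cdc45, the GINS subunits Gins1, Gins2, Gins3 and Gins4, the kinase Cdc7 with its activator Dbf4, and Mcm10, Ticrr and Topbp1. They were taken by symbol, and all 10 were found among the 46078 genes of the count table. Origins are loaded in G1 with an inactive ring of MCM2-7 proteins. At the start of DNA synthesis the CDC7-DBF4 kinase phosphorylates that ring, and cyclin-dependent kinase phosphorylates TICRR (Treslin), which then binds TOPBP1 and brings CDC45 and GINS to the ring to form the CMG helicase (CDC45, MCM, GINS). MCM10 then activates the helicase. Many genes of DNA replication are transcribed from late G1 under E2F control, whereas the DBF4 protein is limited by destruction after mitosis.

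RNA was measured in C2C12, a mouse myoblast line that keeps dividing in rich medium and can form muscle. All cells were in the growing state in medium with 20% serum, stained for 15 minutes with the DNA dye Hoechst and put through a cell sorter, which gave G1, S and G2/M cells. The labels name no other treatment and no genetic change. RNA-seq gave 6 columns of fragment counts, numbered in the titles as replicates 1 and 2 of each fraction. The column headers mark the same pairs L1 and L2. A further 24 samples, of ChIP-seq, are not used. The labels do not say that the 2 columns of a fraction came from separate cultures, and titles of the S columns alone carry the mark lot1, so an effect of lot and one of S phase cannot be told apart.

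The columns held 16109055 to 18103769 fragments assigned to genes. Within a fraction the columns were near sampling noise, with chi-square over its degrees of freedom of 1.00, 1.03 and 1.15 in G1, S and G2/M cells (1.04 in G2/M without the gene model Gm17082). Each pair was summed to 1 library, so no difference between phases below has a replicate check and no p-value is given. All intervals are 95% intervals for counting error alone. Sums of marker genes are given in CPM (fragment counts scaled to a common library size, with TMM factors). In the G1, S and G2/M libraries, 8 genes of mitosis such as Ccnb1 and Plk1 summed to 709.5, 2254 and 3252 CPM. Top2a alone gave 376.0, 1316 and 1501 CPM of these sums. Of the 8, only 1 was lower in S than in G1, Cdc20 at 89.9 against 104.2 CPM. In the same order, 8 genes of the G1/S transition such as Ccne1 and Pcna summed to 1288, 549.3 and 537.4 CPM. The G1/S transition genes, as a sum, were thus highest in the fraction labelled G1, not S. Myoblast genes were present (Vim, Des, Cdh15 and Myf5, with Myod1 at 5.73 to 6.64 CPM, and Pax7 at 0 in G1 and S and 119 fragments in G2/M), 4 of 12 genes of differentiated muscle had no fragment in any library, and the 12 together reached 3.43 to 15.9 CPM. Marker sums were 0 to 6.17 CPM for fibroblasts, 0 to 5.27 CPM for macrophages and 0.156 to 1.09 CPM for endothelial cells, with Thy1, Lum, Dpt, Ptprc, Csf1r, Adgre1, Lyz2 and Tek at 0 throughout.

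The 10 genes did not share a course over the cycle. Cdc45 and Gins1 were lowest in S and highest in G2/M, Gins4 and Mcm10 lowest in S and highest in G1, Gins2 and Gins3 highest in G1 and lowest in G2/M, Cdc7 and Topbp1 highest in S and lowest in G2/M, and Dbf4 and Ticrr lowest in G1 and highest in G2/M. Of the 10, 4, 2 and 4 genes were highest in G1, S and G2/M cells, against 36.5%, 30.3% and 33.3% of the 9071 genes that reached 10 CPM in some library, so no phase held most of these genes, as in the table as a whole. Several of these ranks rest on differences inside the counting interval, among them Ticrr in S and G2/M, Mcm10 in S and G2/M, Gins2 in G1 and S, and Gins4 in G1 and G2/M. In bulk RNA of a sorted fraction, a lower share of cells that carry a transcript and less transcript per cell cannot be told apart.

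**Figure D1:**
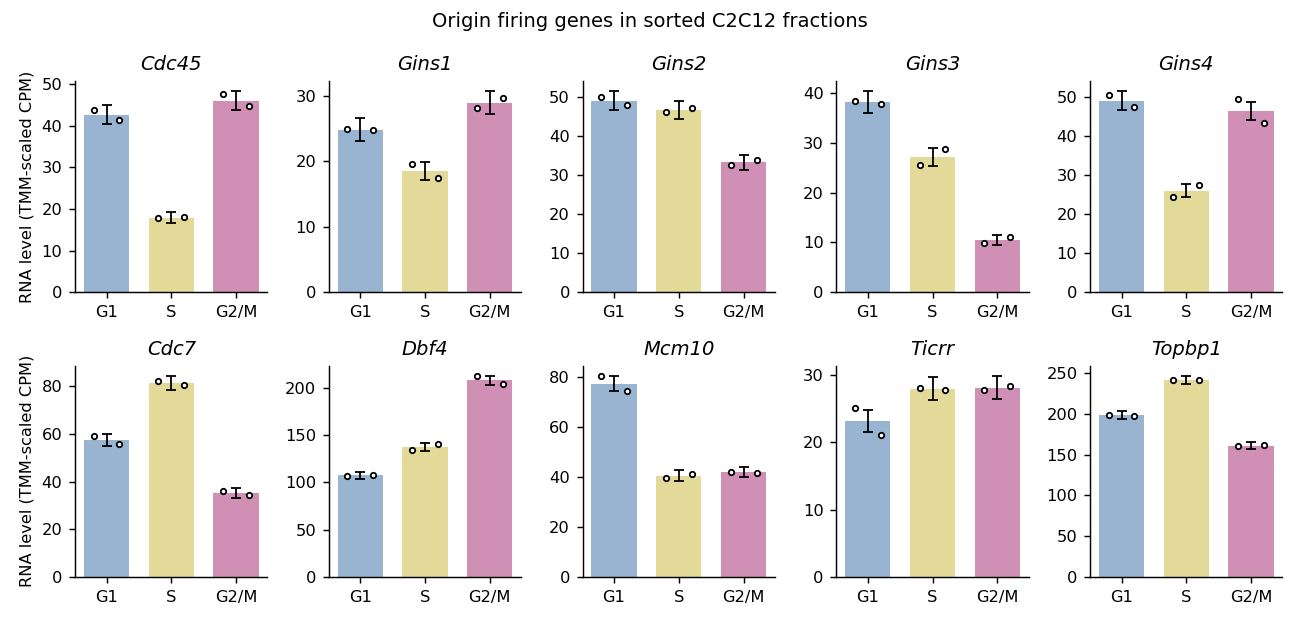
RNA level of the 10 origin firing genes in the G1, S and G2/M libraries, in TMM-scaled CPM; bars are summed libraries, error lines 95% counting intervals, and open circles the 2 columns of each fraction. Cdc45 dips in S at 17.9 CPM, Gins3 falls away in G2/M at 10.4 CPM, and Cdc7 and Dbf4 part in G2/M at 35.2 and 208.3 CPM.

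The subunits of the CDC7-DBF4 kinase differed in opposite directions between G2/M and S. Cdc7, the catalytic subunit, had 940 and 896 fragments in G1 columns, 1459 and 1456 in S columns and 645 and 630 in G2/M columns. That is 57.3, 81.3 and 35.2 CPM, with S highest and G2/M lowest. Dbf4, a regulatory subunit that activates CDC7, had 1712 and 1738 fragments in G1 columns and 2391 and 2538 in S columns. In G2/M columns it had 3820 and 3733. That is 107.6, 137.5 and 208.3 CPM. Its level was thus higher in each later fraction. Cdc7 was 2.31-fold lower in G2/M cells than in S cells (log2 ratio -1.21, interval -1.31 to -1.11), while Dbf4 was 1.51-fold higher (0.60, 0.55 to 0.65). Among the 1972 genes at a mean of 50 to 100 CPM, like Cdc7, the middle 90% of log2 ratios between G2/M and S ran from -0.80 to 0.74, and Cdc7 lay outside it. Among the 1646 genes at 100 to 300 CPM, like Dbf4, it ran from -0.60 to 0.56, and Dbf4 lay just above it.

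Set per exon length, the 2 subunits were close in G1 and S and far apart in G2/M. The length used counts all annotated exon bases of a gene, whether or not its transcripts here hold them. The counting intervals do not cover this, so levels per length of different genes are less certain than the intervals show. Cdc7 stood at 36.9, 59.9 and 26.7 TPM (a level per length that sums to the same total in each library) in G1, S and G2/M cells, and Dbf4 at 33.3, 48.6 and 75.9 TPM. The ratio of Dbf4 to Cdc7 per length was 0.901 in G1 (interval 0.851 to 0.954), 0.810 in S (0.774 to 0.849) and 2.84 in G2/M (2.675 to 3.015). Between S and G1, both were higher in S, Cdc7 1.42-fold (log2 ratio 0.51, interval 0.42 to 0.59) and Dbf4 1.28-fold (0.35, 0.29 to 0.42). Both values lie inside the middle 90% of genes of like level. Between G2/M and G1, Dbf4 was 1.94-fold higher, at 208.3 against 107.6 CPM. Its log2 ratio of 0.95 (interval 0.89 to 1.01) lay above the 95th percentile of 0.84 for genes of like level. Cdc7 was 1.63-fold lower, at 35.2 against 57.3 CPM. Its log2 ratio of -0.70 lay inside the middle 90% for its level, -0.93 to 1.01.

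**Figure D2:**
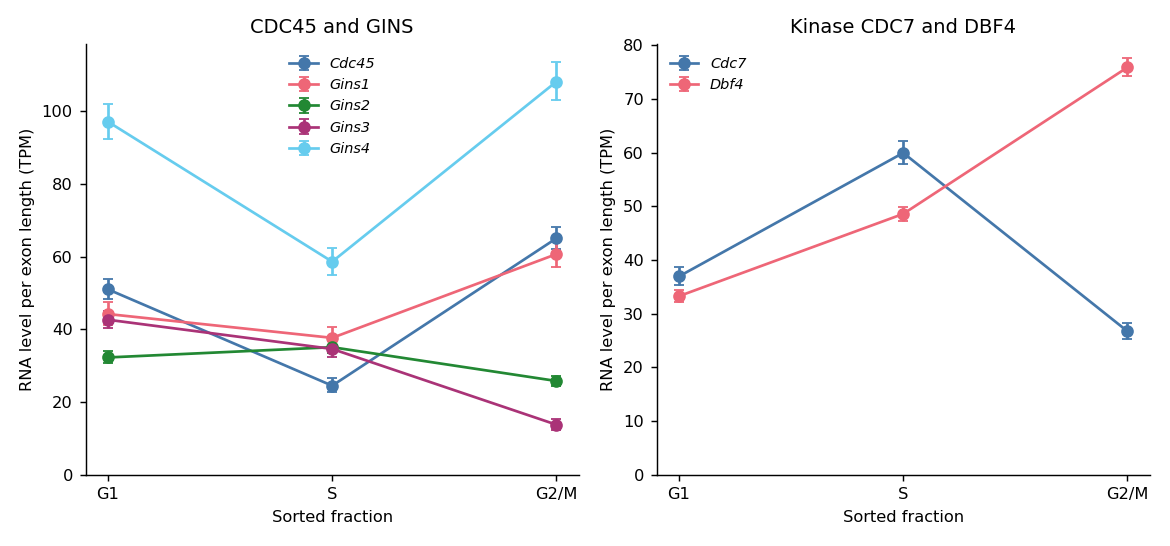
RNA level per exon length, in TPM, of Cdc45 and the GINS subunits (left) and of Cdc7 and Dbf4 (right) in the G1, S and G2/M libraries; error lines are 95% counting intervals. Dbf4 and Cdc7 lie near each other in G1 and S and at 75.9 and 26.7 TPM in G2/M, and Gins4 is the highest curve of the left panel in all 3 libraries.

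Cdc7 (ENSMUSG00000029283) lies on chromosome 5 of GRCm38 from 106964322 to 106984432 on the plus strand, and Dbf4 (ENSMUSG00000002297) on chromosome 5 from 8396973 to 8422716 on the minus strand. Their promoters are shown because the transcripts of these partners part in G2/M, and each window runs from 250 bases before to 50 bases after the annotated start in RefSeq (GRCm38.p6). RefSeq lists 2 starts for Cdc7, and the window of the upstream one is printed. Letters in capitals are matches, on either strand, to an E2F motif (the form TTCCCGC, the form TTGGCGC, the form TTCGCGC or the form TTGCCGC) or to the cell cycle homology region motif of genes of G2 and mitosis (CHR, TTTGAA). The windows are chr5:106964072-106964371, plus strand, and chr5:8422667-8422966, minus strand.
Cdc7: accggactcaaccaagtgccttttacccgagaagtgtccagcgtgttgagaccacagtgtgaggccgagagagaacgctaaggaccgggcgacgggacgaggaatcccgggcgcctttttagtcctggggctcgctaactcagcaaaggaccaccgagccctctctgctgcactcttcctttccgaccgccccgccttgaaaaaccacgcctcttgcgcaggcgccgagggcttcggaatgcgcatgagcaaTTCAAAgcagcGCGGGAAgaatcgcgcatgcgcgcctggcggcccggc
Dbf4: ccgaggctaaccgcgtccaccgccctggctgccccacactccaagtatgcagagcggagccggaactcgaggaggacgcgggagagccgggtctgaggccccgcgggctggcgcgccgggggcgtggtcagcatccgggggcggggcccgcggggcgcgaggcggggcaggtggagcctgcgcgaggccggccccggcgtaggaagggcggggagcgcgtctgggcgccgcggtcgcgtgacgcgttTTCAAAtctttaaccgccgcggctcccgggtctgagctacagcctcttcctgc
Both windows hold TTTGAA, read as TTCAAA on the printed strand, within 10 bases of the start, and the Cdc7 window also holds GCGGGAA, which is TTCCCGC on the other strand. The window of the other Cdc7 start, chr5:106964311-106964610, overlaps the printed one and holds GCGGGAA at 2 places, the nearer from 35 to 29 bases before that start. None of the 4 E2F forms was found in these letters of Dbf4. TTTGAA is in 17.9% and at least 1 of the 4 E2F forms in 9.57% of all 32851 promoter windows, and a match is a description of the letters only.

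The start of Dbf4 lies 134 bases from that of Slc25a40, a mitochondrial carrier gene on the other strand. Slc25a40 had 275, 1108 and 369 fragments in the 3 libraries, so it was highest in S, where Dbf4 was intermediate. It was 1.85 higher on the log2 scale in S than in G1 (interval 1.66 to 2.05) and lower in G2/M than in S, with a log2 ratio of -1.60. The levels of this head-to-head pair thus had different orders over the 3 libraries.

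Cdc45 and the GINS genes, whose proteins join the MCM ring as 1 unit each, fell into 2 patterns. Cdc45 had 700 and 666 fragments in G1 columns, 317 and 325 in S columns and 855 and 817 in G2/M columns, or 42.6, 17.9 and 46.1 CPM. The S library was low and the other 2 were near each other. In S it was 2.38-fold lower than in G1, with a log2 ratio of -1.25 (interval -1.39 to -1.11), and in G2/M 2.57-fold higher than in S cells (1.36, 1.23 to 1.5), whereas G2/M and G1 differed 1.08-fold. Among the 2587 genes at a mean of 20 to 50 CPM, the middle 90% ran from -1.22 to 1.25 between S and G1 and from -1.12 to 1.12 between G2/M and S. Cdc45 lay just outside the range between S and G1 and farther outside that between G2/M and S, and both values rest on the same S library.

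Gins4 and Gins1 went the same way as Cdc45 by smaller steps. Gins4 (Sld5 in yeast) had 808 and 767 fragments in G1 columns, 434 and 496 in S columns and 892 and 792 in G2/M columns, or 49.1, 25.9 and 46.4 CPM. It was 1.89-fold lower in S than in G1 (log2 ratio -0.92, interval -1.04 to -0.80) and 1.79-fold higher in G2/M cells than in S cells (0.84, 0.72 to 0.96). With the first column of each fraction alone the log2 ratios were -1.05 and 1.02, and with the other column alone -0.79 and 0.65. Gins1 (Psf1 in yeast) had 397 and 400 fragments in G1 columns, 349 and 315 in S columns and 506 and 544 in G2/M columns, or 24.9, 18.5 and 29.0 CPM. It was 1.34-fold lower in S than in G1 and 1.56-fold higher in G2/M cells than in S cells, inside the spread of genes of like level.

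Gins3 and Gins2 differed from them in G2/M. Gins3 (Psf3 in yeast) had 613 and 610 fragments in G1 columns, 454 and 517 in S columns and 177 and 202 in G2/M columns, or 38.2, 27.1 and 10.4 CPM, lower in each later fraction. It was 2.59-fold lower in G2/M cells than in S cells (log2 ratio -1.37, interval -1.55 to -1.2) and 3.65-fold lower in G2/M than in G1 (-1.87, -2.04 to -1.7), both below the 5th percentiles of -1.12 and -1.34 for genes of like level. Gins2 (Psf2 in yeast) had 799 and 773 fragments in G1 columns, 820 and 852 in S columns and 587 and 619 in G2/M columns, or 49.0, 46.6 and 33.3 CPM. S and G1 differed by less than the counting interval (log2 ratio -0.07, -0.17 to 0.03), and G2/M was 1.40-fold lower than S. Gins2 is the least certain of the 10 counts: 2758 of its 4097 exon bases (67.3%) are also exon of Gse1 on the other strand, and Gse1 itself had 1057, 431 and 597 fragments in G1, S and G2/M cells. Cdc45 shares 9.28% of its exon bases with Ufd1 and Ticrr 0.515% with Kif7, both on the other strand, and the other 7 genes share none.

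The GINS proteins are found in equal numbers in the complex, but their RNA levels per annotated exon length were not equal. These levels also depend on the annotated lengths, as said above. Gins4 stood highest of the 4, at 97.2, 58.7 and 108.2 TPM in G1, S and G2/M cells. Gins1 stood at 44.2, 37.7 and 60.7 TPM and Gins3 at 42.7, 34.6 and 13.8 TPM. The ratio of Gins1 to Gins3 was therefore near 1 in G1, at 1.04 (interval 0.947 to 1.135), and in S, at 1.09 (0.984 to 1.202), but 4.41 in G2/M (3.92 to 4.97). Cdc45 over Gins1 was 1.15, 0.651 and 1.07 in G1, S and G2/M cells. Gins2 had 32.3, 35.1 and 25.8 TPM over all its exon bases, and 98.8, 107.4 and 79.0 TPM if its fragments are set over the 1339 bases that no other gene shares, so its place among the 4 depends on how the shared bases are treated. The mean of the 4 GINS genes was 23.5, 27.2 and 42.9% of the mean of Mcm2 to Mcm7 in G1, S and G2/M cells. These shares take Gins2 over all its exon bases and would be higher with Gins2 set over its unshared bases. Cdc45 stood at 22.2, 16.1 and 53.6% of the mean of Mcm2 to Mcm7, which was itself 229.8, 152.5 and 121.5 TPM.

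Cdc45 (ENSMUSG00000000028) lies on chromosome 16 from 18780447 to 18811987 on the minus strand and Gins3 (ENSMUSG00000031669) on chromosome 8 from 95633559 to 95645059 on the plus strand. Their promoters are shown because these parts of the same helicase differed in opposite directions between G2/M and S, with capitals as above. The windows, from RefSeq (GRCm38.p6), are chr16:18811923-18812222, minus strand, and chr8:95633309-95633608, plus strand.
Cdc45: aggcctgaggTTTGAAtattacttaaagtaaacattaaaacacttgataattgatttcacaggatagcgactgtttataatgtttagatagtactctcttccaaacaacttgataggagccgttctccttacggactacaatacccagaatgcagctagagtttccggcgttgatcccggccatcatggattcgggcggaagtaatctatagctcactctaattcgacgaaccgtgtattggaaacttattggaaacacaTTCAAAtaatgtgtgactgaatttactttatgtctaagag
Gins3: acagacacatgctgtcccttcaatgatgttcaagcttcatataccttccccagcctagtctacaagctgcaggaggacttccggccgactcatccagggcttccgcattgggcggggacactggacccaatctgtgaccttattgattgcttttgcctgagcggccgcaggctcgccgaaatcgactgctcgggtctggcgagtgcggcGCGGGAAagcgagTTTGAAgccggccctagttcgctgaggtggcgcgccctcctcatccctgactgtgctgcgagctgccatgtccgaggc
The Gins3 window holds an E2F form (GCGGGAA on the printed strand) followed by TTTGAA, both within 41 bases before the start. The Cdc45 window holds TTTGAA in each orientation, 1 of them 10 bases after the start, none of the 4 E2F forms, and 38.7% G and C, against a median of 52.7% over all windows. There was a window for 7 of the 10 genes, and none for Gins1, Gins2 and Gins4. Of the 7, 4 hold TTTGAA (Dbf4, Cdc7, Gins3 and Cdc45), against 17.9% of all windows. An E2F form is in 3 (Cdc7, Gins3 and Topbp1), against 9.57% of all windows. CCAAT, the NF-Y motif, is in 4, against 37.4%, and GGGCGG, the SP1 motif, in 7, against 35.7%. The counts are of genes, of which Cdc7 has 2 windows, and the shares are of windows. In Topbp1 the E2F forms TTGGCGC and TTCGCGC overlap, the second on the other strand. The genes whose windows hold TTTGAA did not share a course, since Dbf4 and Cdc45 were highest in G2/M and Cdc7 and Gins3 lowest there.

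Neighbours of the other helicase genes were measured as well. Ufd1, which starts 208 bases from Cdc45 on the other strand, stood at 72.2, 79.7 and 77.7 CPM in G1, S and G2/M cells and so did not show the low S value of Cdc45. Abhd12, 659 bases from Gins1, stood at 71.5, 74.4 and 46.8 CPM, lowest in G2/M where Gins1 was highest.

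Mcm10, Ticrr and Topbp1 act around helicase assembly, and none of them passed 2-fold in any comparison of the summed libraries. Mcm10 had 1283 and 1200 fragments in G1 columns, 708 and 744 in S columns and 759 and 762 in G2/M columns, or 77.5, 40.5 and 41.9 CPM, so that G1 stood above the other 2 libraries. It was 1.91-fold lower in S than in G1 (log2 ratio -0.94, interval -1.03 to -0.84), just below the 5th percentile of -0.90 for its level. In G2/M it was 1.85-fold lower than in G1 (-0.89), inside the middle 90% for its level, whose 5th percentile was -0.93. G2/M and S differed by less than the counting interval. Topbp1, a scaffold that also activates the checkpoint kinase ATR, had the highest CPM of the 10 in G1 and S, with 3176 and 3185 fragments in G1 columns, 4307 and 4358 in S columns and 2884 and 2958 in G2/M columns, or 198.4, 241.8 and 161.1 CPM. It was 1.22-fold higher in S than in G1 (0.28, 0.24 to 0.33) and 1.5-fold lower in G2/M cells than in S cells (-0.59, -0.63 to -0.54), inside the middle 90% for its level, whose 5th percentile was -0.60. Ticrr, the CDK target that recruits TOPBP1, had 400 and 340 fragments in G1 columns, 499 and 502 in S columns and 499 and 519 in G2/M columns. It was 1.21-fold higher in S than in G1 and did not differ beyond the counting interval between G2/M and S (0.01, -0.12 to 0.13). Per length Ticrr was the lowest of the 10 in each library, at 8.67, 11.98 and 12.4 TPM, with its interval overlapping that of Gins3 in G2/M.

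**Figure D3:**
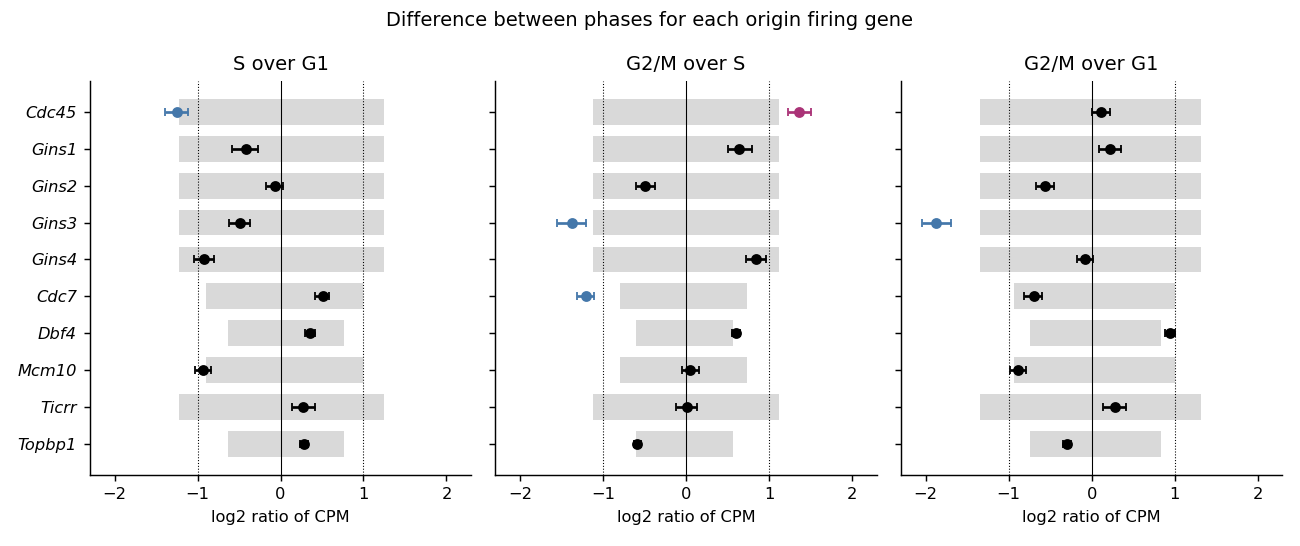
Log2 ratio of CPM for the 10 genes between S and G1, G2/M and S, and G2/M and G1; points with 95% counting intervals, red for at least 2-fold higher, blue for at least 2-fold lower, grey bars the middle 90% of all genes of like mean level, dotted lines 2-fold. Cdc45, Gins3 and Cdc7 pass 2-fold between G2/M and S, at 1.36, -1.37 and -1.21.

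Counted at 2-fold, for genes that reach 10 CPM in either phase compared, 0 to 2 of the 10 genes passed in each direction. Between S and G1, 1 of 10 (Cdc45) was 2-fold lower, against 8.62% of 8773 genes, and 0 of 10 were 2-fold higher, against 8.59%. Between G2/M and S, 1 of 10 (Cdc45) was 2-fold higher, against 7.13% of 8752 genes, and 2 of 10 (Gins3 and Cdc7) 2-fold lower, against 6.60%. Between G2/M and G1, 1 of 10 (Gins3) was 2-fold lower, against 9.82% of 8850 genes, and 1 of 10 passed 2-fold in either direction, against 19.9%. The median log2 ratios of the 10 were -0.25, 0.03 and -0.19 in these comparisons, beside -0.01, 0.01 and 0.00 over all genes counted. With the first columns alone, 3 of 10 were 2-fold lower in S cells than in G1 cells, as Gins4 (-1.05) and Mcm10 (-1.01) joined Cdc45, and 2 of 10 were 2-fold higher in G2/M cells than in S cells, as Gins4 (1.02) joined it. The 3 comparisons share libraries and are not separate results.

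Exon length moved with the S to G1 ratio. Across genes averaging 10 CPM or more, the median log2 ratio was -0.20 for genes of up to 2743 exon bases and 0.23 for genes of at least 6574 bases. Cdc45, Gins1, Gins3 and Gins4 are in the short class and all were lower in S, and Dbf4, Mcm10, Ticrr and Topbp1 are in the long class, where all but Mcm10 were higher in S. Each gene was set against the median of the 500 genes nearest in length, a comparison chosen after the data were seen. Cdc7 differed from it by 0.56, beside its log2 ratio of 0.51. Dbf4 differed by 0.19, Ticrr by 0.10, Topbp1 by 0.00, Gins2 by -0.04 and Gins1 by -0.23. Gins3 differed by -0.38, Gins4 by -0.70, Mcm10 by -1.08 and Cdc45 by -1.09. Between G2/M and S the length classes differed less, with medians of 0.09 and -0.06. Against genes of like length, Cdc45 (1.33), Gins3 (-1.42) and Cdc7 (-1.21) stayed past 2-fold there. Between G2/M and G1 the medians of the short and long classes were -0.12 and 0.14. Against genes of like length, Dbf4 then differed by 0.83, beside its log2 ratio of 0.95, and Gins3 by -1.77. The part of length in these differences was not tested further.

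**Figure D4:**
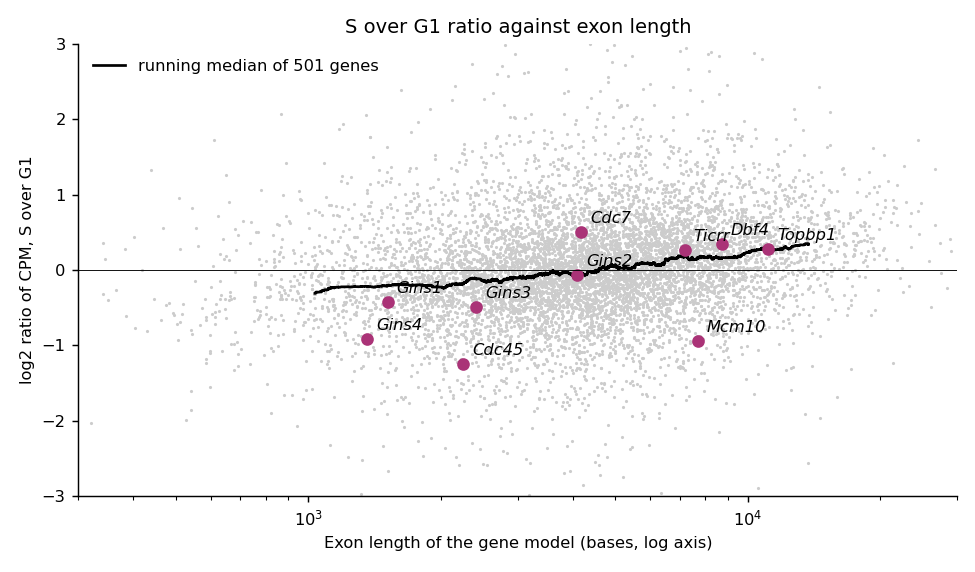
Log2 ratio of CPM between S and G1 against exon length (log axis) for genes averaging 10 CPM or more, drawn where the ratio is within the axis; grey points are genes, the black line their running median, red points the 10 origin firing genes. Long genes sit higher, and Cdc45 and Mcm10 lie more than 1 log2 unit below genes of like length.

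The other genes of the pathway give the setting, from lists chosen with earlier results of these data known. All 6 of the MCM2-7 ring were lower in S than in G1. Of them 1 was 2-fold lower (Mcm3, at 140.2 against 371.0 CPM), against 8.62% of all genes. All 6 were also lower in G2/M than in G1, 5 of them 2-fold, against 9.82% of all genes. Their median log2 ratio in that comparison was -1.10. Between G2/M and S, 5 of 6 were lower and none passed 2-fold, as in Mcm2 at 99.98 against 171.2 CPM. Of all genes, 6.60% were 2-fold lower and 7.13% 2-fold higher there. Mcm7 was the nearest to its G1 level, 1.49-fold lower in G2/M, and Mcm3 the farthest, 3.03-fold lower. The partners of that ring spanned a wider range in the same comparison: Gins1 was 1.16-fold and Cdc45 1.08-fold higher in G2/M than in G1, and Gins4 was 1.06-fold, Gins2 1.47-fold and Gins3 3.65-fold lower. Of the 10 licensing factors, 2 were 2-fold lower in S than in G1, against 8.62% of all genes. These were the MCM loaders Cdc6 (11.2 against 140.3 CPM) and Cdt1 (15.6 against 59.8 CPM). The same 2 were 2-fold higher in G2/M cells than in S cells, against 7.13% of all genes. The list did not share this course: 6 of its 10 genes were higher in S than in G1, against 49.56% of all genes. Its median log2 ratio there was 0.14. Cdc45, Gins4 and Gins1 were lowest in S, as Cdc6 and Cdt1 were.

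Among other firing factors, Recql4, a helicase with a domain like yeast Sld2, was 2.67-fold lower in G2/M cells than in S cells (6.40 against 17.1 CPM), and Donson, which helps bring GINS to the ring, was 1.73-fold lower in S than in G1 (16.2 against 27.9 CPM). Mtbp, the partner of Treslin, stood at 51.1 CPM in G2/M cells against 63.4 CPM in S cells. In the S-phase CDK list, 3 of 5 were 2-fold lower in S than in G1, against 8.62% of all genes: Ccne2 (16.6 against 85.6 CPM), Ccne1 (19.4 against 59.9 CPM) and the kinase Cdk2 (36.2 against 87.6 CPM). The cyclin gene Ccna2 was 2-fold higher (364.5 against 151.7 CPM), against 8.59% of all genes. The same 3 genes were 2-fold lower in G2/M than in G1, against 9.82% of all genes, and Ccna2 stood at 444.8 against 151.7 CPM. Of 12 replisome partners of the helicase, 1 was 2-fold lower in S than in G1, against 8.62% of all genes. That was the adaptor Wdhd1 (66.6 against 167.1 CPM). None was 2-fold higher, against 8.59% of all genes. Between G2/M and S none passed 2-fold, against 6.60% of all genes lower and 7.13% higher. Pole2, a subunit of the leading strand polymerase that contacts GINS, stood at 26.5 against 13.4 CPM. Its catalytic partner Pole stood at 32.3 against 54.99 CPM.

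Of 7 measured genes of CMG unloading, 1 was 2-fold higher in G2/M cells than in S cells, against 7.13% of all genes. That was Traip, a ubiquitin ligase that removes the helicase in mitosis, 2.73-fold higher (26.6 against 9.74 CPM). The other 6 did not pass 2-fold. Lrr1, the eighth gene of that list and part of the ligase that unloads the helicase at termination, was under 10 CPM in both of these libraries (2.21 in G2/M against 6.44 in S). It was 2.13-fold lower in S and 6.24-fold lower in G2/M than in G1, where it stood at 13.8 CPM. Around TOPBP1, 4 of 7 measured genes of ATR activation passed 2-fold between G2/M and G1 in 1 direction or the other, against 19.9% of all genes, among them the clamp loader gene Rad17 (55.2 against 12.5 CPM) and the clamp subunit Rad1 (9.04 against 39.7 CPM). Topbp1 itself stood at 161.1 against 198.4 CPM.

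**Figure D5:**
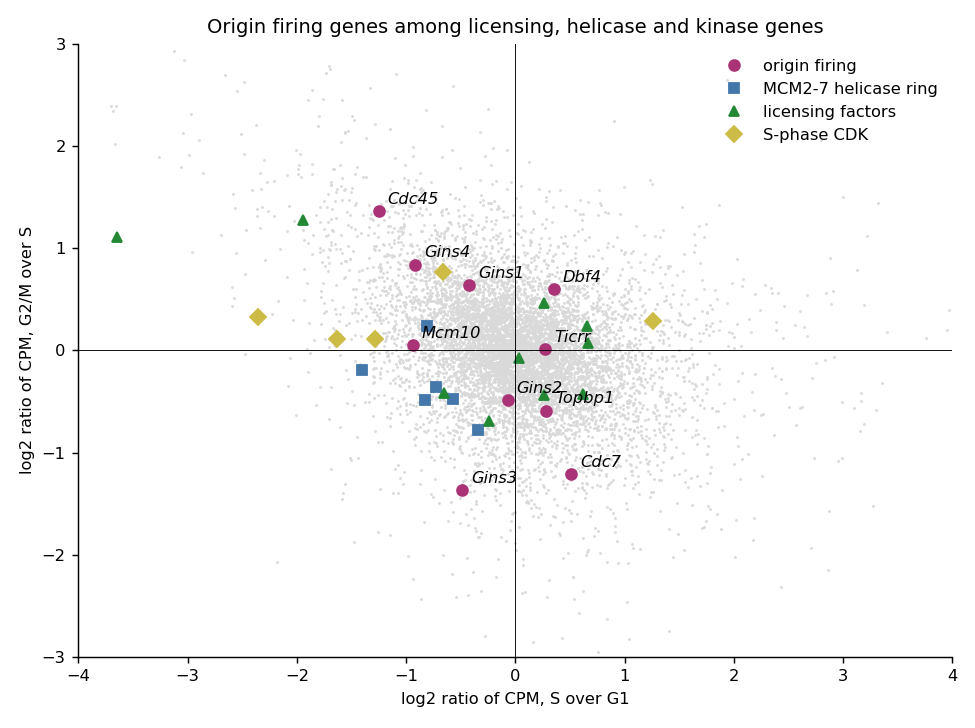
Log2 ratio of CPM between G2/M and S against that between S and G1, for genes averaging 10 CPM or more (grey, drawn where within the axes) and 4 gene lists. The axes share the S library, so opposite signs along them are built in; Cdc45, Gins4 and Gins1 lie upper left, Cdt1 lies farther out on that side at -1.94 and 1.28, MCM genes lie left, and Cdc7 lies lower right.

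Genes with the most similar course were sought for the 4 genes averaging 50 CPM or more, by the distance between pairs of log2 ratios (S over G1, G2/M over S) over 3 libraries. Mcm10 was nearest to Emc4 and Sumo3, Topbp1 to Tcf20 and Prdx4, Dbf4 to Faxc and Cep128, and Cdc7 to Cd109 and Ppp4c. Of 4183 genes compared, 150 lay within 0.2 of Topbp1, 59 of Dbf4, 29 of Mcm10 and 10 of Cdc7. With 3 libraries such nearness is a description only.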

How the data were processed

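The deposited counts are whole fragments per gene. The authors made them with featureCounts 1.5.0-p3 in paired mode, over the exons of each gene of Ensembl's GRCm38 gene models, per the file headers. No strand option was set there, so strand does not separate a gene from its antisense partner where their exons overlap. The deposited length column gives exon bases per gene, per the file headers. Per the submitters' processing notes, HISAT2 2.1.0 and SAMtools 1.6 were also used, in roles not stated. Reads had 101 cycles, per the labels' protocols. Read trimming and filters are not given in the sources used here.

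Gene IDs were matched to symbols for 45143 of 46078 genes, including all 10 described. Dbf4b, in the list of other firing factors, was not found by symbol. Each column took its sample from the file name in that sample's description. The 2 columns of a fraction were compared by chi-square over genes with at least 10 fragments (p = 0.450, 0.0109 and 3.11e-28 for the G1, S and G2/M columns, comparing reads of 2 columns only). Since chi-square stayed under 1.5 times its degrees of freedom, they were summed. The G1, S and G2/M libraries held 32395232, 35822319 and 35907974 fragments. CPM used TMM factors of 0.990, 1.00 and 1.01 from edgeR 4.0.16 (R 4.3.3) over 12832 genes. Ratios set counts under 3 to 3 and have exact 95% binomial intervals, and levels have exact Poisson intervals. Fragments are not independent molecules where they are PCR copies, so intervals cover counting error only. TPM used the deposited exon length, which counts all annotated exon bases of a gene. Scripts were tested on simulated data. Alternatives were other scalings (among them DESeq2 1.42.0 size factors), level minima, 1.5-fold, single columns, and columns as replicates in edgeR's quasi-likelihood test.

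All 10 genes are named in every comparison. From each of 7 context lists, at most 2 genes of largest ratio at a mean of at least 10 CPM are named per comparison, besides neighbours of the 10. Mcm7, Cdk2 and Lrr1, and Ccna2 between S and G1, were named after their values were seen. Members, lists and tests were chosen with earlier results of these data known. Promoters came from RefSeq (GRCm38.p6) for 7 of the 10 genes.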

Additional observations from a re-analysis of the deposited data

How the results depend on the processing

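Without TMM factors, with DESeq2 size factors, with TMM over all genes with a fragment, and with a minimum of 5 CPM or none, the counts at 2-fold and the medians of the 10 genes kept their values within the limits set. Single columns gave 1 to 3 genes 2-fold lower in S than in G1 and 1 to 2 genes 2-fold higher in G2/M cells than in S cells: with the first columns alone Gins4 and Mcm10 joined Cdc45 in S over G1, and Gins4 joined Cdc45 in G2/M over S. At 1.5-fold, 0 genes were higher and 3 lower in S than in G1 (18.5 and 18.35% of all genes), 4 higher and 3 lower in G2/M than in S (16.1 and 15.4%), and 1 higher and 3 lower in G2/M than in G1 (20.2 and 19.6%). Centred on genes of like exon length, 2 genes (Cdc45 and Mcm10) were 2-fold lower in S than in G1, and the median of the 10 was -0.13, against -0.25. Counting columns as replicates in edgeR's quasi-likelihood test at an FDR of 0.05 with no fold minimum called 4 genes higher and 5 lower in S than in G1, 4 and 4 in G2/M than in S, and 4 and 5 in G2/M than in G1, where 84.7, 83.6 and 84.8% of 12489 genes were called, so these calls compare libraries only. With a replicate block the counts were 4 and 5, 4 and 4, and 4 and 5. Column deviations correlated at -0.00489 to 0.0240 between fractions, so no shift shared by columns of the same number was seen. Deviations this near sampling noise cannot show what else those columns share.

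Counting error alone is small in these ratios, since the lowest count of the 10 genes was 379 fragments (Gins3 in G2/M). The number of molecules behind a fragment count is unknown. With 1 library per fraction, the spread between cultures is also unknown. Ratios spread more at lower levels. Between S and G1, 17.2% of all genes at 20 to 50 CPM differed 2-fold. The share was 8.47% at 50 to 100 CPM and 3.34% at 100 to 300 CPM. Cdc45, the GINS genes and Ticrr were in the lowest of these ranges. The parts of level and of the number of libraries in this spread were not tested.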
